A study of Homo sapiens with 12 samples.

Results

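The genes of the proteasome were followed through 12 RNA sequencing libraries of HaCaT, a human keratinocyte line that grows without limit. Members were the rows of the deposited count table whose symbol is PSMA, PSMB, PSMC, PSMD, PSME, PSMF or PSMG followed by a number, without PSMB8 and PSMB9. The rule found 45 of 16271 gene IDs, with 44 symbols, because PSMA1 is listed under 2 overlapping IDs (ENSG00000129084 and ENSG00000256206) that may share reads. All 45 passed the filter on low counts. There were 4 groups of 3 libraries. In the order used here, they are cells labelled VDR KO, which lack a working copy of the gene for the vitamin D receptor according to that label, after 8 h of 1,25(OH)2D3, the form of vitamin D that acts as a hormone; the same knockout cells untreated; wild type cells treated in the same way; and untreated wild type cells. The sources used here do not state the dose, the vehicle, how the knockout was made or how many clones it stands for. A difference between the genotypes therefore cannot be told apart from a difference between one clone and its parent line. The labels speak of replicates from a culture plate, so each p-value reflects the spread among libraries, and that spread may be technical.

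The proteasome degrades proteins that carry ubiquitin chains. Its barrel-shaped core is built of outer rings of alpha subunits (PSMA genes), which gate the entrance, and inner rings of beta subunits (PSMB genes), some of which cut peptide bonds. A regulatory particle caps the core: a base with a ring of ATPases (PSMC genes) unfolds the substrate, and most PSMD genes encode its other subunits, which bind ubiquitin chains, remove them or hold the particle together. PSME genes encode other caps, PSMF1 an inhibitor, and PSMG genes chaperones that assemble the core. In mammalian cells many of these genes are known to be raised together by the transcription factor NFE2L1 when proteasome activity is short.

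Libraries held 11.83 to 12.77 M counts (1e6 counts) in treated knockout cells, 12.61 to 15.99 M in untreated knockout cells, 13.13 to 13.89 M in treated wild type cells and 11.49 to 12.21 M in untreated wild type cells. VDR itself averaged 82.8 ± 3.02 CPM in treated and 77.6 ± 4.07 CPM in untreated knockout cells, against 71.0 ± 3.62 CPM in treated and 103.3 ± 3.81 CPM in untreated wild type cells (counts per 1e6 counts, scaled by TMM; SD, n = 3 each). Counts over the whole gene do not check a knockout whose altered part is not given. CYP24A1, the hormone's classic target, averaged 12.2 ± 0.232 CPM in treated and 16.9 ± 4.83 CPM in untreated knockout cells, against 1676 ± 61.1 CPM in treated and 48.0 ± 2.88 CPM in untreated wild type cells. All 10 keratinocyte markers looked for were at 1 CPM or more in every library, and their summed level was 1934 to 2158 CPM in treated and 2048 to 2097 CPM in untreated knockout cells, against 3903 to 4012 CPM in treated and 4079 to 4611 CPM in untreated wild type cells. Of the defining markers of other cell types the table lacked 4 of 7 for fibroblasts, 4 of 5 for endothelium, 5 of 6 for immune cells and 4 of 6 for melanocytes. The 2 melanocyte markers present summed to 19.5 to 21.5 CPM in treated and 15.1 to 18.7 CPM in untreated knockout cells, against 6.68 to 9.36 CPM in treated and 9.97 to 10.9 CPM in untreated wild type cells. The 1 immune marker present was at 3.56 to 4.27 CPM in treated and 4.20 to 5.41 CPM in untreated knockout cells, against 13.5 to 15.1 CPM in treated and 7.10 to 12.4 CPM in untreated wild type cells. The 3 fibroblast markers summed to 1.96 to 6.42 CPM in knockout and 3.91 to 20.6 CPM in wild type libraries, and the 1 endothelial marker was at 3.77 to 5.41 CPM in knockout and 2.62 to 8.19 CPM in wild type libraries. The part of these differences in the results below was not tested. In bulk RNA, fewer cells that express a gene and less RNA per cell cannot be told apart.

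Together the 44 genes, with PSMA1 counted once, held 5165 ± 149 CPM in treated knockout cells, 5371 ± 93.2 CPM in untreated knockout cells, 4164 ± 74.7 CPM in treated wild type cells and 4639 ± 208 CPM in untreated wild type cells (SD, n = 3 each). The knockout libraries lay above the wild type libraries in both conditions without overlap. The beta ring, the subunits that hold the catalytic sites, did so as well, with 940 ± 23.7 CPM in treated and 963 ± 27.1 CPM in untreated knockout cells, against 540.1 ± 18.7 CPM in treated and 699.7 ± 13.4 CPM in untreated wild type cells. The activators and the inhibitor ran the other way, with 402 ± 14.6 CPM in treated and 436 ± 6.35 CPM in untreated knockout cells, against 499 ± 4.72 CPM in treated and 523 ± 39.2 CPM in untreated wild type cells. The assembly chaperones also held less in the knockout, with 138 ± 7.71 CPM treated and 157 ± 3.71 CPM untreated, against 185 ± 10.9 CPM in treated and 174 ± 9.58 CPM in untreated wild type cells.

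**Figure D1:**
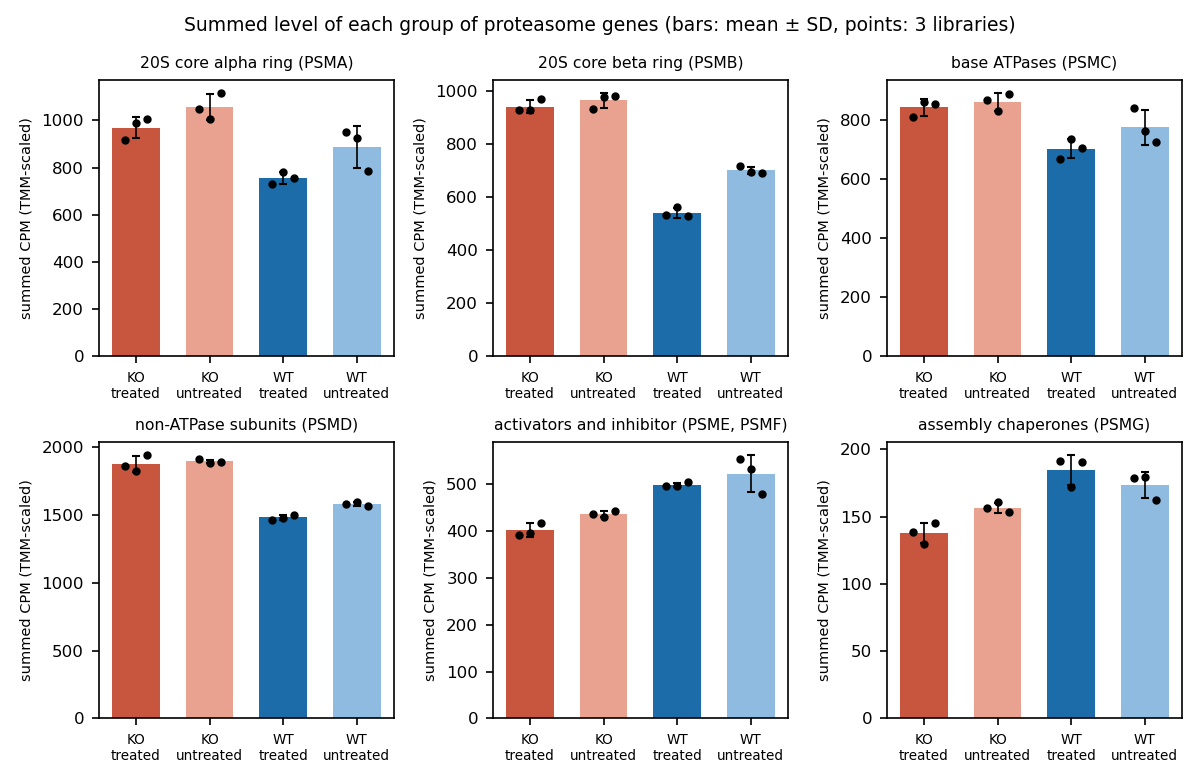
Summed level (vertical axes, TMM-scaled CPM, from 0) of 6 groups of proteasome genes in treated and untreated knockout (KO) and wild type (WT) cells; bars are means, error bars SD and points the 3 libraries. The PSMB sum averaged 940 CPM in treated knockout and 540.1 CPM in treated wild type cells, while the PSME and PSMF sum averaged 402 and 499 CPM in the same groups.

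Per kilobase of 1 chosen transcript, levels within each group of genes spread widely. In untreated wild type cells the alpha ring ran between 11.1 CPM per kilobase for PSMA4 and 344 for PSMA7, and the beta ring between 12.5 for PSMB4 and 258 for PSMB7. The base ATPases lay between 11.3 for PSMC2 and 206 for PSMC3, and the PSMD genes between 9.0 for PSMD10, a chaperone of the base, and 93.3 for PSMD1, one of its largest subunits. PSME4 had 7.5 and PSME3 143, and among the assembly chaperones PSMG2 had 19.3 and PSMG4 64.7 CPM per kilobase. Subunits present in equal number in the finished core differed in RNA level per length, and these values depend on the transcript chosen for the length. Within a group of 3 libraries the median coefficient of variation of the members was between 4.65% in treated wild type and 6.59% in untreated wild type cells. It was highest for PSMA7 in untreated wild type cells, at 22.2%, where replicate 3 was low. That library was also the lowest of its group for PSME1, PSME2, PSMC5, PSMD2 and PSMA4. For other members it was the highest, among them PSMD14 (175 CPM, against 137 and 135) and PSMD1 (346 CPM, against 280 and 304). In a principal component analysis not limited to the members, it lay at -32.5 on the first axis. Untreated wild type replicates 1 and 2 lay at -54.3 and -55.7, and the knockout libraries between 46.5 and 57.5. The cause of this shift toward the knockout libraries was not tested.

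The first question was how the knockout cells differed from wild type cells. In treated cells 28 members were higher and 11 lower in the knockout at an adjusted p below 0.05, and in untreated cells 29 were higher and 8 lower. Of all 14676 genes tested, 38.4% were higher and 37.4% lower in treated cells, and 35.5% were higher and 34.2% lower in untreated cells. Members called higher were thus 62.2% of members in treated and 64.4% in untreated cells, and members called lower 24.4% and 17.8%. Of the genes within the members' range of mean log2 CPM, 38.7% were higher and 40.6% lower in treated cells. In untreated cells 34.1% of those genes were higher and 37.9% lower. The median log2 fold change of the members was 0.52 in treated cells (0.46 with PSMA1 counted once), where that of all genes was 0.02, and 0.32 in untreated cells, where that of all genes was 0.01. The 2 comparisons use separate libraries, but of the same knockout and wild type cells. In both comparisons 27 members were higher and 7 lower, none was called in opposite directions, and PSMB6, PSMB10 and PSMD9 were called in neither. The share of all genes called the same way in both was not computed, so these counts cannot be set against it.

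**Figure D2:**
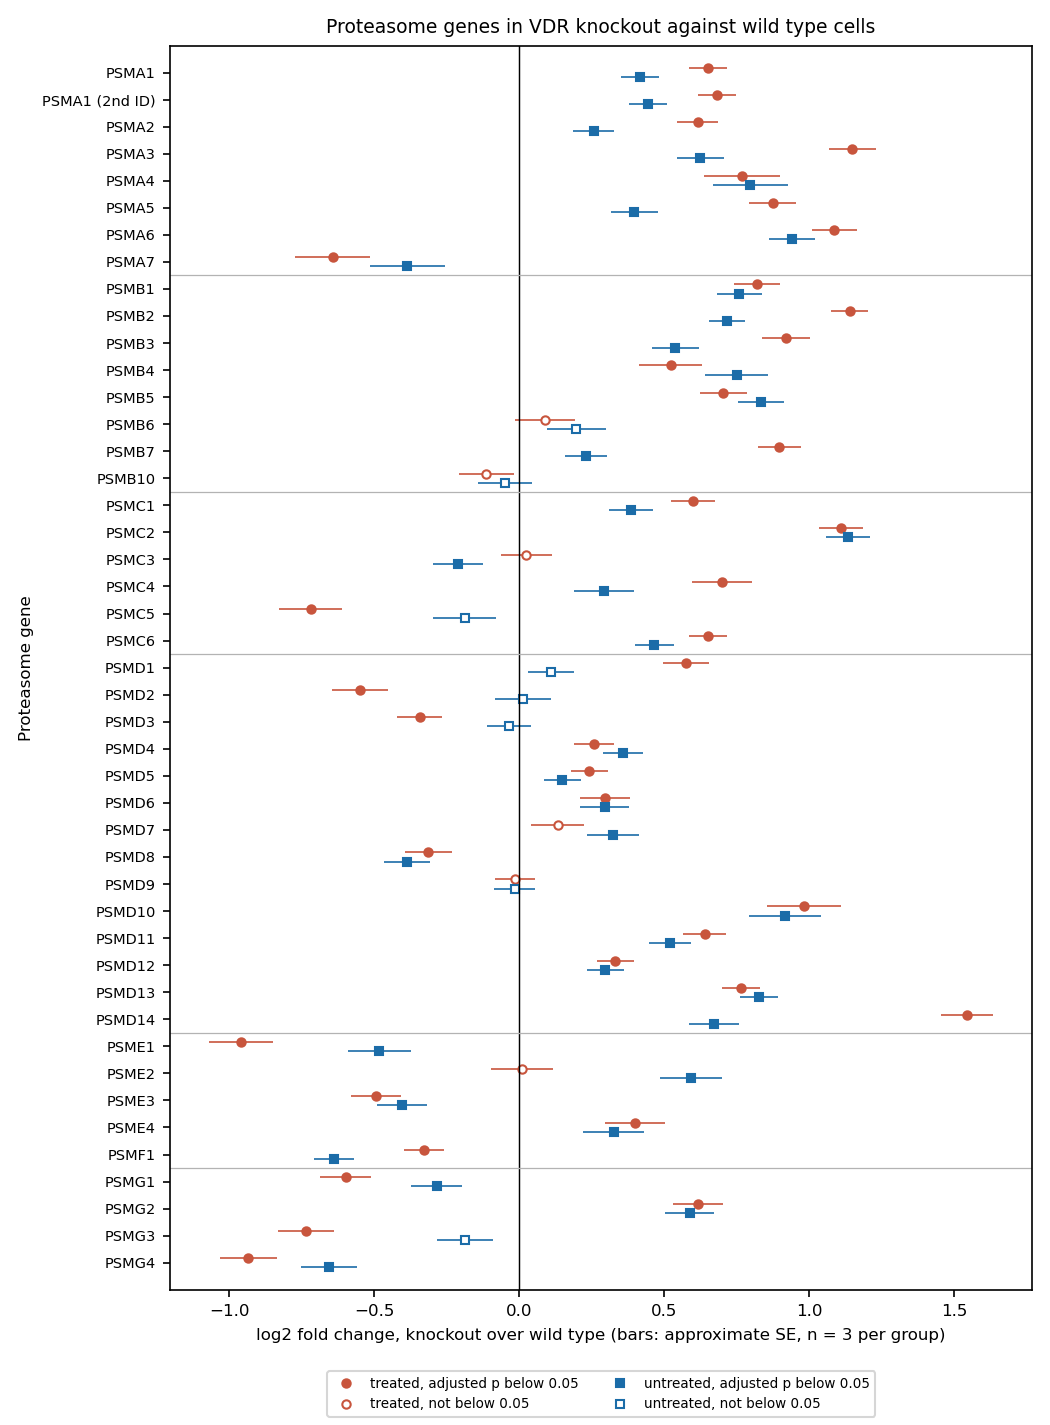
Log2 fold change of each of the 45 members (rows, grouped by role), knockout over wild type, in treated (circles) and untreated (squares) cells; bars are approximate SE, n = 3 per group, and filled symbols have an adjusted p below 0.05. Most PSMA, PSMB, PSMC and PSMD genes lie right of 0, up to 1.55 for PSMD14 in treated cells, and PSME1, PSME3, PSMF1, PSMG1 and PSMG4 lie left of 0.

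In the alpha ring 7 of 8 rows were higher in the knockout in each condition and 1, PSMA7, was lower. PSMA6 had 146, 167 and 162 CPM in treated knockout libraries, 165, 158 and 177 CPM in untreated knockout libraries, 68.5, 80.5 and 74.7 CPM in treated wild type libraries and 86.0, 89.1 and 85.8 CPM in untreated wild type libraries. Its knockout values all lay above its wild type values, with a log2 fold change, knockout over wild type, of 1.09 ± 0.08 (adjusted p = 1.94e-09) in treated and 0.94 ± 0.08 (adjusted p = 1.61e-08) in untreated cells (± SE, n = 3 per group, here and below). PSMA3 differed by 1.15 ± 0.08 (adjusted p = 1.79e-09) in treated and 0.62 ± 0.08 (adjusted p = 3.13e-06) in untreated cells. PSMA7 had 199.5, 205 and 238 CPM in treated knockout libraries, 266, 244 and 277 CPM in untreated knockout libraries, 326, 334 and 344 CPM in treated wild type libraries and 393, 380.3 and 255 CPM in untreated wild type libraries. It was the alpha gene with the highest RNA level per length in wild type cells, and the single one lower in the knockout, at -0.64 ± 0.13 (adjusted p = 0.000334) in treated and -0.39 ± 0.13 (adjusted p = 0.0146) in untreated cells. In untreated cells its groups overlapped through wild type replicate 3, and the call was lost without wild type replicate 1, wild type replicate 2 or knockout replicate 2.

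In the beta ring 6 of 8 genes were higher in the knockout in each condition and none was lower. PSMB2, a noncatalytic subunit, had 207, 194 and 197 CPM in treated knockout libraries, 182, 189 and 187 CPM in untreated knockout libraries, 88.2, 93.4 and 89.1 CPM in treated wild type libraries and 112, 112 and 115 CPM in untreated wild type libraries. Every knockout library lay above every wild type library, with a log2 fold change of 1.14 ± 0.06 (adjusted p = 1.03e-10) in treated and 0.72 ± 0.06 (adjusted p = 3.25e-08) in untreated cells. Of the 3 catalytic subunits 2 were higher in each condition. PSMB5, of the chymotrypsin-like site, had 58.2, 53.7 and 59.9 CPM in treated knockout libraries, 60.2, 72.7 and 66.8 CPM in untreated knockout libraries, 36.2, 34.4 and 34.8 CPM in treated wild type libraries and 36.9, 38.1 and 36.8 CPM in untreated wild type libraries, and was higher in the knockout by 0.70 ± 0.08 (adjusted p = 4.48e-07) in treated and 0.84 ± 0.08 (adjusted p = 8.34e-08) in untreated cells. PSMB7, of the trypsin-like site, was higher by 0.90 ± 0.07 (adjusted p = 9.87e-09) in treated and by 0.23 ± 0.07 (adjusted p = 0.0101) in untreated cells. For PSMB6, of the caspase-like site, the values were 0.09 ± 0.10 (adjusted p = 0.441) and 0.20 ± 0.10 (adjusted p = 0.0941), and for PSMB10, which replaces PSMB7 in the immunoproteasome, -0.11 ± 0.09 (adjusted p = 0.28) and -0.05 ± 0.09 (adjusted p = 0.66). PSMB8 and PSMB9, the other inducible catalytic genes, stand outside the rule. PSMB9 was higher in the knockout by 0.39 ± 0.09 (adjusted p = 0.000802) in treated and 0.45 ± 0.09 (adjusted p = 0.000293) in untreated cells. PSMB8 was called higher in untreated knockout cells and was not called in treated ones.

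Of the 6 base ATPases 4 were higher and 1 lower in the knockout in each condition. PSMC2 had 67.8, 69.0 and 65.8 CPM in treated knockout libraries, 75.7, 74.2 and 78.1 CPM in untreated knockout libraries, 30.5, 34.5 and 28.8 CPM in treated wild type libraries and 34.7, 35.6 and 33.6 CPM in untreated wild type libraries. The groups of each condition were far apart, at 1.11 ± 0.08 (adjusted p = 1.15e-09) in treated and 1.13 ± 0.08 (adjusted p = 1.45e-09) in untreated cells. PSMC2 shares its counts in all 12 libraries with 1 other gene ID. PSMC1P1, a pseudogene of PSMC1 outside the rule, was called in no comparison. PSMC1 and PSMC6 were higher in both conditions, PSMC6 by 0.65 ± 0.07 in treated and 0.47 ± 0.07 in untreated cells. PSMC5 was lower in treated knockout cells, at -0.72 ± 0.11 (adjusted p = 1.59e-05), with -0.19 ± 0.11 (adjusted p = 0.134) in untreated cells, and PSMC3 was lower in untreated knockout cells, at -0.21 ± 0.09 (adjusted p = 0.0392), with 0.02 ± 0.09 (adjusted p = 0.808) in treated cells. The PSMC3 call was lost without wild type replicate 1 or any of the 3 untreated knockout replicates. PSMC4, 1 of the 4 higher in untreated cells, lost that call without knockout replicate 3.

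Among the 14 PSMD genes 9 were higher in each condition, and 3 were lower in treated and 1 in untreated knockout cells. PSMD5, 1 of the 9 higher in untreated cells, lost that call without wild type replicate 1 or 2 or knockout replicate 1 or 3. PSMD14, the deubiquitinase that removes ubiquitin chains as the substrate enters, had 297, 283 and 278 CPM in treated knockout libraries, 227, 241 and 244 CPM in untreated knockout libraries, 100.1, 97.2 and 96.4 CPM in treated wild type libraries and 137, 135 and 175 CPM in untreated wild type libraries. In treated cells it showed the largest difference of any member, 1.55 ± 0.09 (adjusted p = 1.48e-10), in untreated cells the difference was 0.67 ± 0.09 (adjusted p = 3.01e-06), and its knockout values did not overlap its wild type values. PSMD10 differed by 0.98 ± 0.13 in treated and 0.92 ± 0.13 in untreated cells, and the lid subunit PSMD13 by 0.76 ± 0.07 and 0.83 ± 0.07. PSMD2, a large subunit that docks ubiquitin carriers, was lower in treated knockout cells, at -0.55 ± 0.10 (adjusted p = 7.02e-05), with 0.01 ± 0.10 (adjusted p = 0.913) in untreated cells. PSMD3, a lid subunit, was lower in treated knockout cells, at -0.34 ± 0.08 (adjusted p = 0.000652), and PSMD8 was lower in both conditions, at -0.31 ± 0.08 treated and -0.39 ± 0.08 untreated.

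Of the 5 PSME and PSMF genes 1 was higher and 3 were lower in treated knockout cells, and 2 were higher and 3 lower in untreated ones. PSME1 and PSME2 encode the partners of one ring-shaped activator, known for its part in antigen processing, and lie close together on chromosome 14. PSME1 had 44.8, 38.8 and 46.2 CPM in treated knockout libraries, 55.7, 52.5 and 57.9 CPM in untreated knockout libraries, 81.6, 87.2 and 83.8 CPM in treated wild type libraries and 90.5, 79.3 and 62.3 CPM in untreated wild type libraries. It was lower in the knockout, at -0.96 ± 0.11 (adjusted p = 4.90e-07) in treated and -0.48 ± 0.11 (adjusted p = 0.000757) in untreated cells. PSME2 had 54.5, 56.9 and 58.2 CPM in treated knockout libraries, 84.2, 76.6 and 81.1 CPM in untreated knockout libraries, 54.4, 57.0 and 57.0 CPM in treated wild type libraries and 61.5, 57.8 and 41.3 CPM in untreated wild type libraries. It was higher in untreated knockout cells by 0.59 ± 0.11 (adjusted p = 0.000107), and in treated cells the difference was 0.01 ± 0.11 (adjusted p = 0.936). PSME3, of the nuclear activator, was lower, at -0.49 ± 0.09 treated and -0.40 ± 0.09 untreated, PSME4, which encodes a large single-chain activator, was higher by 0.40 ± 0.10 and 0.33 ± 0.10, and PSMF1 was lower, at -0.33 ± 0.07 and -0.64 ± 0.07. The PSME4 call in untreated cells was lost without wild type replicate 1 or knockout replicate 3.

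The core's assembly chaperones act in pairs, PSMG1 with PSMG2 and PSMG3 with PSMG4. Of these 4 genes 1 was higher and 3 were lower in treated knockout cells, and 1 was higher and 2 lower in untreated ones. PSMG2 had 48.4, 43.4 and 45.8 CPM in treated knockout libraries, 50.5, 51.9 and 44.6 CPM in untreated knockout libraries, 28.8, 30.8 and 30.1 CPM in treated wild type libraries and 34.4, 29.7 and 33.5 CPM in untreated wild type libraries, and was higher in the knockout by 0.62 ± 0.09 (adjusted p = 4.87e-06) in treated and 0.59 ± 0.09 (adjusted p = 1.04e-05) in untreated cells. Its partner PSMG1 was lower, at -0.60 ± 0.09 (adjusted p = 8.80e-06) treated and -0.29 ± 0.09 (adjusted p = 0.00784) untreated. PSMG4 had 26.7, 27.1 and 30.2 CPM in treated knockout libraries, 33.0, 36.7 and 33.6 CPM in untreated knockout libraries, 60.2, 46.4 and 53.8 CPM in treated wild type libraries and 54.8, 57.2 and 50.6 CPM in untreated wild type libraries, and was lower, at -0.93 ± 0.10 (adjusted p = 1.54e-07) in treated and -0.66 ± 0.10 (adjusted p = 1.10e-05) in untreated cells. PSMG3 was lower in treated knockout cells, at -0.74 ± 0.10 (adjusted p = 2.82e-06), with -0.19 ± 0.10 (adjusted p = 0.0962) in untreated cells.

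**Figure D3:**
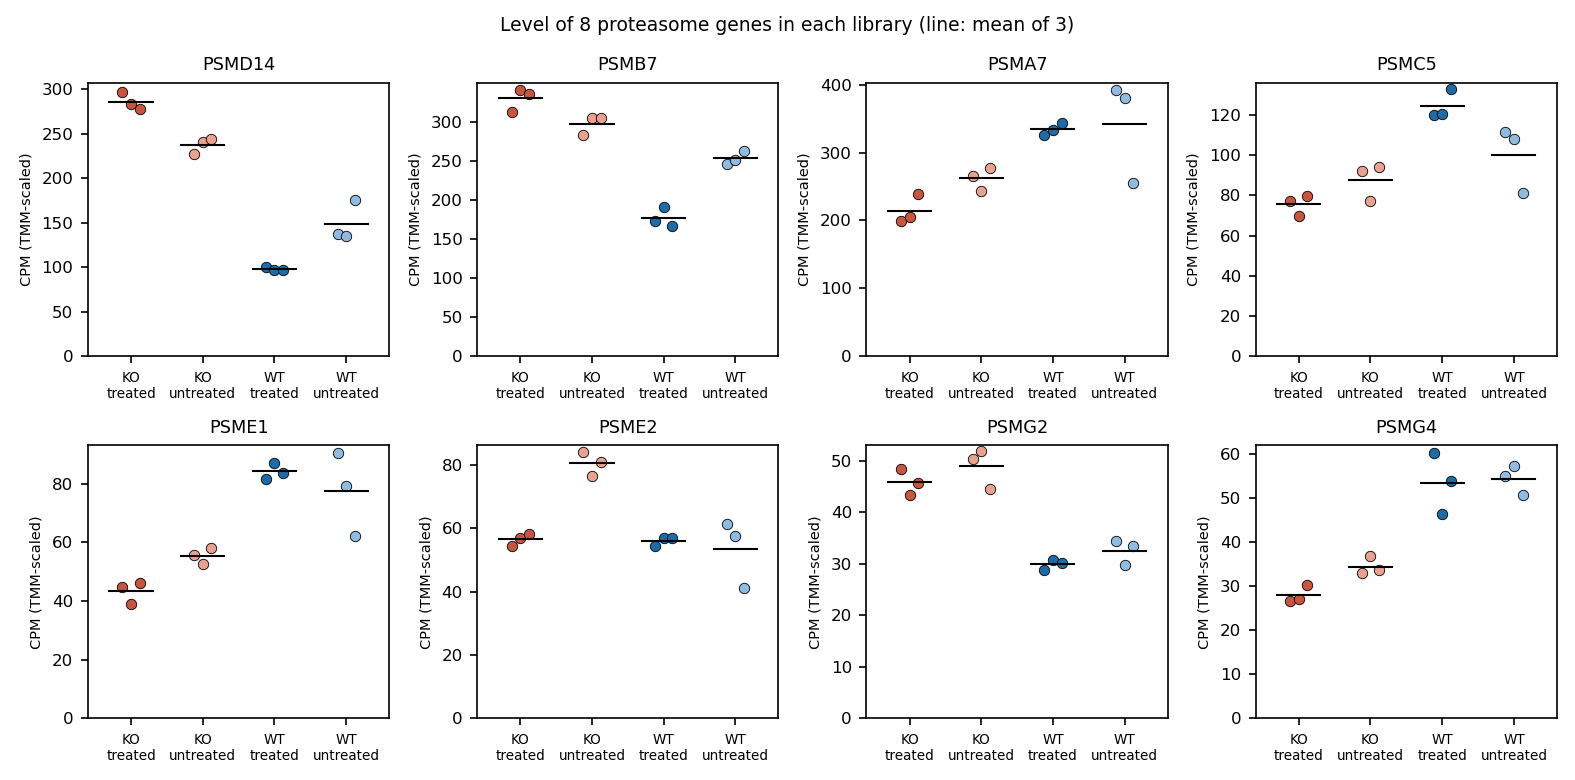
Level (vertical axes, TMM-scaled CPM, from 0) of 8 proteasome genes in each library of treated and untreated knockout (KO) and wild type (WT) cells; points are libraries and lines group means. PSMD14 lies higher in all knockout than in all wild type libraries, PSME1 and PSMG4 lie lower in knockout than in wild type libraries, and PSME2 is high in the 3 untreated knockout libraries alone.

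GC content moved with these differences. Across the 45 members the fold change, knockout over wild type, had a Spearman correlation with the GC content of 1 transcript per gene of -0.54 in treated and -0.41 in untreated cells, and across 14091 other genes -0.50 and -0.39. These are correlations across genes measured in the same libraries, and genes are not independent replicates. Of the 13 members below 45% GC, all 13 were higher in treated knockout cells and 12 in untreated ones, where 60.0% and 51.2% of the other genes below 45% were higher. Of the 17 members at 52% or more, 5 were higher and 8 lower in treated cells, and 6 were higher and 5 lower in untreated cells. Of the other genes at 52% or more, 17.04% were higher and 62.4% lower in treated cells, and 19.99% were higher and 53.0% lower in untreated cells. When the GC trend of all genes was removed, an alternative chosen after seeing the data, the members' median was 0.35 in treated and 0.20 in untreated cells. It left 28 higher and 11 lower in treated cells, of which 23 and 9 had been called before, and 23 higher and 6 lower in untreated cells, of which 20 and 6 had been. Of all genes, 35.9% were then higher and 35.6% lower in treated cells, and 33.1% and 33.8% in untreated cells. PSMA1 by its second ID, PSMA2, PSMA5, PSMC6, PSMD5, PSMD6, PSMD7, PSMD12 and PSME4 were then no longer called higher in untreated cells. In treated cells PSMC6, PSMD6 and PSME4 were no longer called, and PSMD5 (-0.16) and PSMD12 (-0.17) were lower rather than higher. Newly called higher were PSMC3 (0.37) and PSME2 (0.44) in treated cells. PSMD3 was higher rather than lower in treated cells (0.16), and in untreated cells, where it had not been called, it was higher (0.27). PSMB6 (0.35 treated and 0.34 untreated) and PSMB10 (0.50 treated and 0.33 untreated) were also newly called higher, in both conditions. PSMC3 and PSMD8 were no longer called lower in untreated cells, nor PSMD8 in treated cells.

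**Figure D4:**
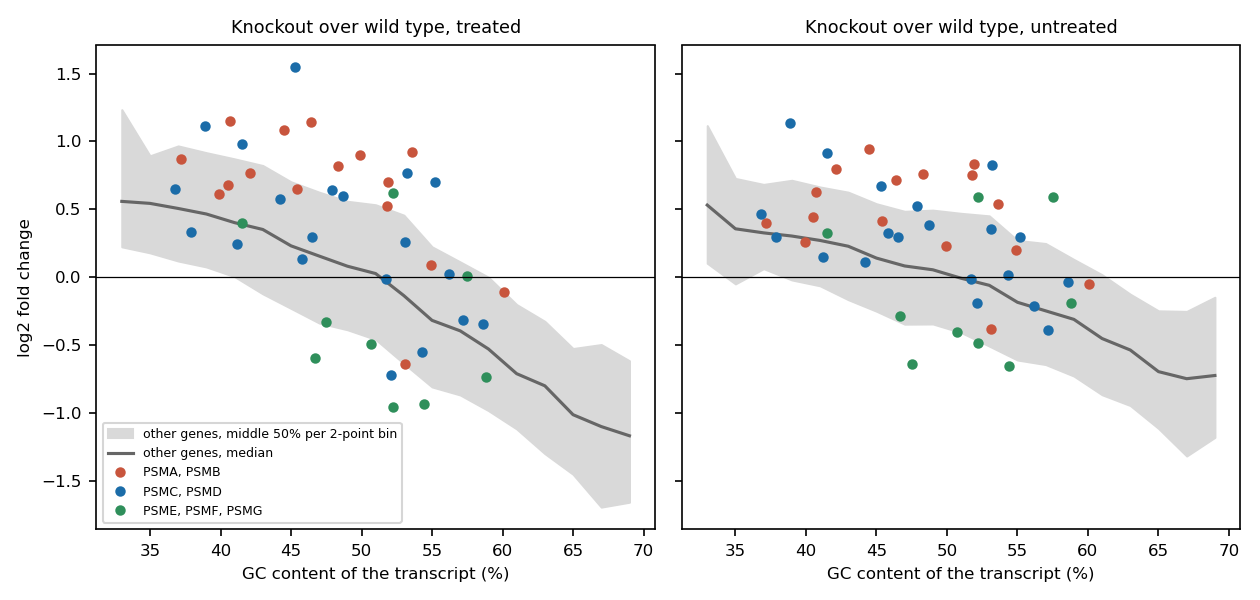
Log2 fold change, knockout over wild type (vertical axes), against GC content of the transcript (horizontal axes, %) in treated (left) and untreated (right) cells; the grey line and band are the median and middle 50% of other genes in bins holding at least 20 genes, and coloured points the 45 members. Members of low GC content lie mostly above 0, as do other genes of low GC content, and the Spearman correlation across members was -0.54 in treated cells.

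Promoters are shown for members whose values stand out in the account above: the gene with the largest difference (PSMD14), 2 others that were higher (PSMB2 and PSMC2), the neighbours PSME1 and PSME2, and PSMG4, which was lower. They were chosen after the values were seen, and PSMC2 was added after the motif search. Each line gives the 250 bases before the gene's start, read in the direction of the gene, from RefSeq on GRCh38.p14, and capitals mark matches on either strand to TGACNNNGC (the antioxidant response element core, which NFE2L1 can bind), CCGGAAG (an ETS core) or CCAAT.
PSMD14: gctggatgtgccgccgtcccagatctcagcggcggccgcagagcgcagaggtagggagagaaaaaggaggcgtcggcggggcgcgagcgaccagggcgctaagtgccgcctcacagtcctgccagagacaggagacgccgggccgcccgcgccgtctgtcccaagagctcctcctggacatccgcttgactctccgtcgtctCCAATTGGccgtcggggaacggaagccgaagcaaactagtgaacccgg
PSMB2: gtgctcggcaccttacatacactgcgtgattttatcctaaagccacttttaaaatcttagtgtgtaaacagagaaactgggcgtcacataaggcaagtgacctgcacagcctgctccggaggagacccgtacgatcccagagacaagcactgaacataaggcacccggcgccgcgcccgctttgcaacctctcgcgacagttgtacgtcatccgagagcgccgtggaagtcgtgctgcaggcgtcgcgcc
PSMC2: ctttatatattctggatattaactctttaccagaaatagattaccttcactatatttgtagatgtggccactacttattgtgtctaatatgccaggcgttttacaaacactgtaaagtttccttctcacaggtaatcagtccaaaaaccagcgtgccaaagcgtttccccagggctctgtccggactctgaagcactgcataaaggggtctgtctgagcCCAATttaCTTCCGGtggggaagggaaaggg
PSME1: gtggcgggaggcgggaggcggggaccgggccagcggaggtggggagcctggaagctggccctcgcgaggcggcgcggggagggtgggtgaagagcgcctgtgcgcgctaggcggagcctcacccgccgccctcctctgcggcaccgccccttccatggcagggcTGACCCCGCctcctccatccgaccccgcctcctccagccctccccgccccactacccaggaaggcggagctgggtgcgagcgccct
PSME2: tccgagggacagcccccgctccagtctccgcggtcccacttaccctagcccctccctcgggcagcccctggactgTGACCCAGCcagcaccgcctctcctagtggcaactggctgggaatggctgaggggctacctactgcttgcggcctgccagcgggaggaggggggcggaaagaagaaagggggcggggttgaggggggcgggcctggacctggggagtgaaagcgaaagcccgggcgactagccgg
PSMG4: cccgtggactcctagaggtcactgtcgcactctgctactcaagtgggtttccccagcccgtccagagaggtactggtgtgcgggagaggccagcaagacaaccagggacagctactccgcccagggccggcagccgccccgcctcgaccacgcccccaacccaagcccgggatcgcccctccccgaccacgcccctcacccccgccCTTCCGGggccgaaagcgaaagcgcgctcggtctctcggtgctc
These stretches are chr2:161308175-161308424 (plus strand) for PSMD14, chr1:35641527-35641776 (minus strand) for PSMB2, chr7:103347393-103347642 (plus strand) for PSMC2, chr14:24135944-24136193 (plus strand) for PSME1, chr14:24146611-24146860 (minus strand) for PSME2 and chr6:3258697-3258946 (plus strand) for PSMG4. These starts are those of RefSeq, and the GENCODE v29 annotation places the genes differently. It begins PSMG4 at 3231403 and PSMC2 at 103344254, so their printed stretches lie inside the GENCODE genes. The same holds for PSMD14, PSMB2 and PSME2, and the PSME1 stretch crosses the GENCODE start. In PSMD14 the capitals are 2 overlapping matches to CCAAT, 1 on each strand. PSMB2 holds no match in this stretch. PSME1 and PSME2, whose RNA differed in opposite directions in untreated knockout cells, each hold 1 match to the antioxidant response element core.

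RefSeq windows of 300 bases (250 before the start to 50 after it) were found for 38 of the 44 symbols, 46 windows in all. TGACNNNGC was in 14 of these (30.4%) and in 13.3% of all 35116 promoter windows. CCGGAAG was also in 14 (30.4%), and in 10.3% of all windows. CCAAT was in 18 (39.1%) and in 34.6% of all windows, and the GC box GGGCGG in 31 (67.4%) and in 44.95%. No member window held a pair of GGTCA or a pair of GTTCA repeats spaced as in vitamin D response elements, which were in 0.065% and 0.043% of all windows. Such matches describe letters in a window and were not tested for binding.

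The next question was what the hormone did in each genotype. In knockout cells no member rose and 2 fell at 8 h by edgeR, where 0.913% of all genes tested rose and 1.64% fell, and the members' median log2 fold change, treated over untreated, was -0.12. At an unadjusted p below 0.05 there were 18 of 45 members in knockout cells, where 21.3% of all genes lay below it, and DESeq2 called 1 member higher and 5 lower, where it called 2.78% of all genes higher and 3.39% lower. In wild type cells 2 members rose and 15 fell, where 11.5% of all genes rose and 13.0% fell. Falls were thus 33.3% of members and rises 4.44%, and the median was -0.15, against -0.005 for all genes. Of the genes within the members' range of mean log2 CPM, 12.9% rose and 15.9% fell in wild type cells. In knockout cells 1.08% of those genes rose and 2.01% fell. The treated wild type libraries also enter the comparison of treated knockout with treated wild type cells, so these values are not separate evidence.

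**Figure D5:**
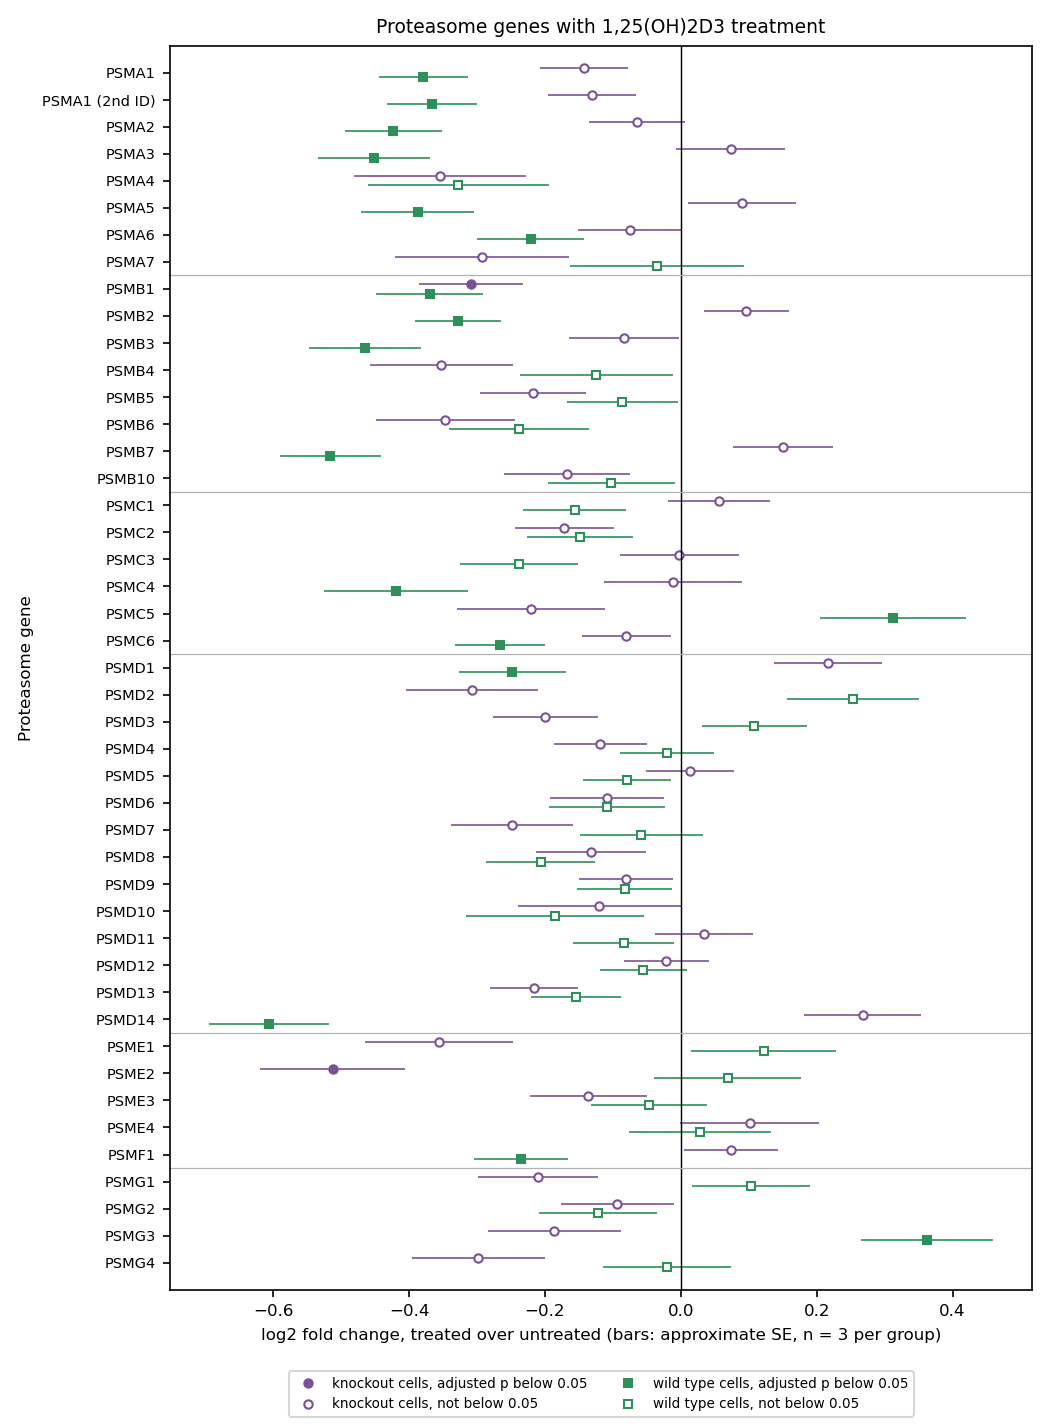
Log2 fold change of each of the 45 members (rows, grouped by role), treated over untreated, in knockout (circles) and wild type (squares) cells; bars are approximate SE, n = 3 per group, and filled symbols have an adjusted p below 0.05. In wild type cells 15 members are filled left of 0, down to -0.61 for PSMD14, and 2 right of 0, and in knockout cells 2 are filled, both left of 0.

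Of the 15 falls in wild type cells 10 were in the core. In the alpha ring 6 of 8 rows fell and in the beta ring 4 of 8, while 2 of 6 PSMC genes, 2 of 14 PSMD genes and 1 of the 5 PSME and PSMF genes fell. PSMD14 fell, with a log2 fold change of -0.61 ± 0.09 (adjusted p = 0.000217). PSMB7 had 313, 341 and 336 CPM in treated knockout libraries, 283, 305 and 305 CPM in untreated knockout libraries, 173, 191 and 167 CPM in treated wild type libraries and 246, 251 and 263 CPM in untreated wild type libraries. Its treated wild type libraries lay below every other library, and it fell, with a log2 fold change of -0.52 ± 0.07 (adjusted p = 0.000197). PSMB3 fell, at -0.46 ± 0.08, PSMA3 at -0.45 ± 0.08, PSMA2 at -0.42 ± 0.07, PSMC4 at -0.42 ± 0.11, PSMA5 at -0.39 ± 0.08 and PSMB2 at -0.33 ± 0.06. The other catalytic genes did not pass the edgeR test without GC removal, at -0.09 ± 0.08 (adjusted p = 0.475) for PSMB5 and -0.24 ± 0.10 (adjusted p = 0.103) for PSMB6.

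PSMC5 and PSMG3 rose in treated wild type cells. PSMC5 had 77.3, 69.8 and 79.4 CPM in treated knockout libraries, 92.3, 77.0 and 94.3 CPM in untreated knockout libraries, 120.0, 120.2 and 133 CPM in treated wild type libraries and 111, 108 and 81.0 CPM in untreated wild type libraries, a change of 0.31 ± 0.11 (adjusted p = 0.045). That call was lost without untreated wild type replicate 3, which was the lowest of its group, and without any 1 of the 3 treated wild type replicates. PSMG3 had 30.3, 26.8 and 31.8 CPM in treated knockout libraries, 31.3, 35.1 and 34.6 CPM in untreated knockout libraries, 50.8, 43.7 and 53.5 CPM in treated wild type libraries and 38.0, 41.8 and 35.3 CPM in untreated wild type libraries, a change of 0.36 ± 0.10 (adjusted p = 0.0123), and lost its call without treated wild type replicate 3. Of the falls, PSMA6, PSMD1, PSMC4 and PSMF1 lost theirs without at least 1 library (PSMA6 without untreated replicate 1 or 2 or treated replicate 1 or 3, PSMD1 without untreated replicate 3 or any treated replicate, PSMC4 without treated replicate 1, and PSMF1 without untreated replicate 1 or treated replicate 2 or 3). With the GC trend removed the same 2 members rose and 16 fell, where 10.9% of all genes rose and 14.4% fell: PSMA6, PSMC6 and PSMD1 were not called, and PSMB6 (-0.29, adjusted p = 0.0256), PSMC3, PSMD8 and PSMD13 were.

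In knockout cells PSME2 fell with treatment, at -0.51 ± 0.11 (adjusted p = 0.0227) and PSMB1, a noncatalytic beta subunit, at -0.31 ± 0.08 (adjusted p = 0.046). The 3 treated libraries lay between 54.5 and 58.2 CPM for PSME2, and the 3 untreated ones between 76.6 and 84.2 CPM. Both calls were lost when any library of the comparison other than untreated knockout replicate 2 was left out. PSMD14 had a value of 0.27 ± 0.09 (adjusted p = 0.0935) and PSMB7 of 0.15 ± 0.07 (adjusted p = 0.246) in knockout cells, and neither passed the test. With the GC trend removed 0 members rose and the same 2 fell, where 1.57% of all genes rose and 2.28% fell.

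Whether the response differed between the genotypes was tested directly, as the knockout response minus the wild type response. It was higher for 10 members and lower for 6, where 13.8% of all genes were higher and 12.5% lower. Of the genes within the members' range of mean log2 CPM, 17% were higher and 14.4% lower. The 6 lower are 13.3% of members, close to the share of all genes, and the members' median was 0.03. The smallest p-values were those of PSMD14, 0.87 ± 0.12 (adjusted p = 0.000206), PSMB7, 0.67 ± 0.10 (adjusted p = 0.000397), PSMB2, 0.42 ± 0.09 (adjusted p = 0.0026), PSMA3, 0.52 ± 0.12 (adjusted p = 0.00349), and PSMD1, 0.46 ± 0.11 (adjusted p = 0.00638). For PSME1 and PSME2 the difference was negative in both, -0.48 ± 0.15 (adjusted p = 0.0291) and -0.58 ± 0.15 (adjusted p = 0.0101), and for PSMC5, PSMD2 and PSMG3 it was -0.53 ± 0.15, -0.56 ± 0.14 and -0.55 ± 0.14. PSMB3, PSMC4, PSMC5, PSMD3, PSME1 and PSMF1 lost their call without treated wild type replicate 3 or without untreated knockout replicate 1, and fewer of them without other libraries. With the GC trend removed 8 were higher and 6 lower, where 14.8% and 11.1% of all genes were: PSMA2 (0.23, adjusted p = 0.114), PSMA5 (0.31, adjusted p = 0.0573), PSMF1 (0.26, adjusted p = 0.051) and PSMD3 (-0.11, adjusted p = 0.357) were no longer called, while PSMC3 was called higher (0.38) and PSMG1 lower (-0.37).

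Genes that work with the proteasome outside the naming rule were looked up as lists. Of all genes tested, 38.4% were higher and 37.4% lower in treated knockout cells, and 35.5% and 34.2% in untreated ones. The lists are short, and their counts, here and in the next paragraph, were not tested against these shares. Of 12 proteasome partners 8 were higher and 2 lower in treated knockout cells, and 6 higher and 3 lower in untreated ones. POMP, the maturation factor of the core, was higher by 0.91 ± 0.07 (adjusted p = 7.80e-09) in treated and 0.36 ± 0.07 (adjusted p = 0.00031) in untreated cells, and in wild type cells it fell with treatment, at -0.50 ± 0.07 (adjusted p = 0.000241). After removal of the GC trend the POMP difference in untreated cells was -0.07. ADRM1, a ubiquitin receptor of the regulatory particle, was lower, at -0.76 ± 0.11 and -0.63 ± 0.11, though 0.15 in treated cells once the GC trend was removed. SHFM1, a small lid subunit now named SEM1, was higher by 0.58 ± 0.08 and 0.60 ± 0.08, and -0.01 in treated cells without the GC trend.

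Of the 4 genes of ubiquitin and its activation looked at here 1 was higher and 3 lower in treated, and 0 higher and 2 lower in untreated knockout cells. RPS27A, which encodes ubiquitin fused to a ribosomal protein, was lower, at -0.65 ± 0.10 and -0.77 ± 0.10. UBA6, a ubiquitin-activating enzyme, was higher in treated knockout cells by 0.52 ± 0.08, but -0.04 with the GC trend removed, and UBA1 was lower in untreated ones, at -0.18 ± 0.07, but 0.05 with it removed. Of 11 shuttle and VCP complex genes 4 were higher and 1 lower in each condition. The share called higher was near that of all genes tested, which was 38.4% in treated and 35.5% in untreated cells. The lower one was DDI2, a shuttle and protease that cleaves NFE2L1, at -0.56 ± 0.06 treated and -0.57 ± 0.06 untreated. Of 9 genes that control proteasome gene transcription 2 were higher and 6 lower in treated, and 2 higher and 4 lower in untreated knockout cells. DDI2 is on this list as well and is counted again among the lower genes. NFE2L1 was lower in treated knockout cells, at -0.46 ± 0.07 (adjusted p = 1.34e-05), with 0.10 ± 0.07 (adjusted p = 0.205) in untreated cells, and it rose with treatment in wild type cells by 0.33 ± 0.07 (adjusted p = 0.00307). MAFK, which encodes a small partner of NFE2L1, was lower, at -1.66 ± 0.20 and -1.36 ± 0.20.

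The authors' deposited table of gene ontology terms for genes that fell with treatment in wild type cells lists 7 of 859 genes under proteasome core complex (adjusted p = 0.0108). That term holds 19 of 11430 background genes. The same table lists 14 of 840 genes under SCF-dependent proteasomal ubiquitin-dependent protein catabolic process (adjusted p = 0.0376). This second term holds 66 of 10954 background genes, and 9 of the listed genes have PSM symbols. All these tables compare the same groups of libraries as here, so they are not separate evidence. The authors' deposited table for treated knockout cells against treated wild type cells lists 34 of 4054 higher genes under proteasome complex (adjusted p = 0.0342). That term holds 63 of 11440 background genes. Of the 34 listed genes 27 have PSM symbols, among them PSMB9, which is not a member here. The authors' deposited table for untreated cells lists 12 of 3189 higher genes under proteasome core complex (adjusted p = 0.0424), PSMB8 and PSMB9 among them. The background for that term was 19 of 11443 genes. The authors' deposited table for treatment in knockout cells lists 7 of 314 lower genes under proteasome complex (adjusted p = 0.0238). The background for that term was 63 of 11431 genes. The listed genes with PSM symbols are PSMA4, PSMB1, PSMB6, PSME1 and PSME2, of which PSMB1 and PSME2 alone were called here by edgeR.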

How the data were processed

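The labels put 12 libraries in 4 groups of 3. The authors deposited raw read counts per gene and CPM (each count per 1e6 counts of its column, matched to within 0.005), and gene ontology tables with a p-value per term and, as other values, how many listed genes fall in it, per the file headers. Which group was higher in each of those tables was settled from the sign of its listed genes. Per the submitters' processing notes, BWA 0.5.9 and the mouse build mm9 were used; since the gene IDs are human, the actual build is unclear, and the sources used here do not state the strand setting or counter. Reads of overlapping genes may be split or counted more than once: 17 members overlap an exon of another counted gene. PSMA2, PSMB10 and PSMC2 each have 1 other gene ID with the same counts in all 12 libraries. Their reads may therefore stand under both IDs.

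Counts were tested with edgeR 4.0.16 in R 4.3.3 (TMM, factors 0.95 to 1.057; filterByExpr, 14676 genes kept and 1595 set aside; robust quasi-likelihood test on all 12 libraries), with Benjamini-Hochberg adjustment over all genes in each of 5 comparisons, calling adjusted p below 0.05. SE is the log2 fold change divided by the root of F. Scripts were tested on simulated data. GC content, length and position come from GENCODE v29 on GRCh38, 1 transcript per gene, with 44 members matched by ID and 1 by symbol. Motifs were searched on both strands in RefSeq windows. Members, lists and sequences shown were chosen with earlier results of these data known. The text names the members with the largest called changes (at most 10 each way), the catalytic genes, the PSME, PSMF and PSMG genes, and up to 4 genes per list. Some listed genes are not reported here and are left out of the list counts. Alternatives were other scalings and filters, DESeq2 1.42.0, limma 3.58.1 on log2 CPM with a pseudocount of 1, a threshold of 0.01, the compared groups alone, a replicate block, each library left out and, added after seeing the data, GC trend removal and PSMA1 counted once.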

Additional observations from a re-analysis of the deposited data

Results flagged for a closer look

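The response to treatment differed between the genotypes by the test of the difference itself (knockout response minus wild type response, log2 scale, edgeR adjusted p below 0.05) for the genes given here. Among core genes the difference was 0.36 for PSMA2, 0.52 for PSMA3, 0.48 for PSMA5, 0.42 for PSMB2, 0.38 for PSMB3 and 0.67 for PSMB7. In the regulatory particle it was 0.41 for PSMC4, -0.53 for PSMC5, 0.46 for PSMD1, -0.56 for PSMD2, -0.31 for PSMD3 and 0.87 for PSMD14. PSMA2, PSMA5, PSMD3 and PSMF1 lost this call with the GC trend removed. Other caps, the inhibitor and the chaperones gave -0.48 for PSME1, -0.58 for PSME2, 0.31 for PSMF1 and -0.55 for PSMG3. Outside the rule it was 0.55 for POMP, 0.43 for PAAF1, 0.58 for UBA6, -0.28 for VCP, 0.55 for FAF1, 0.29 for FAF2, -0.56 for NFE2L1 and -0.71 for MAFG. VDR gave 0.64, and CYP24A1, the hormone's classic target, gave -5.60.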

How the results depend on the processing

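Counts of members called in treated knockout against treated wild type cells were 28 higher and 11 lower without any 1 library. In untreated cells leaving out 1 library gave 26 to 30 higher and 6 to 10 lower, and scaling by library size alone or limma gave 5 lower, since PSMA7, PSMG1 and PSMC3 were then not called. Library size alone moved the median of all genes from 0.01 to 0.13 in untreated and from 0.02 to 0.13 in treated cells, and 60.4% of all calls in untreated cells were then higher. For treatment in wild type cells, rises numbered 0 at an adjusted p below 0.01, 1 with the replicate block, 1 with the compared groups alone and 0 to 3 without 1 library, and falls 12 to 18 without 1 library. For treatment in knockout cells, rises numbered 1 with DESeq2, 2 with the compared groups alone and 0 without any 1 library, and falls 5 with DESeq2, 0 at the stricter threshold, 1 with the replicate block, 11 with the compared groups alone and 0 to 2 without 1 library. The share of all calls in knockout cells that were rises was 20% with library size alone. For the difference of responses the stricter threshold gave 6 higher and 2 lower, and leaving out 1 library 7 to 12 and 3 to 7. The share of all genes called was not computed for the stricter threshold, replicate block, compared groups alone, limma or any library left out. Counts of members under those settings therefore cannot be set against it. The causes were not tested.

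Removing the GC trend changed the sign of 15 values, knockout over wild type, that were called before or after it. In untreated cells PSMB10 became 0.33, PSMD3 0.27, PSMA2 -0.0609, PSMD5 -0.134, PSMD12 -0.0514, POMP -0.0661 and UBA1 0.0536. In treated cells PSMD3 became 0.16, PSMB10 0.50, PSMD8 0.0957, PSMD5 -0.16, PSMD12 -0.17, ADRM1 0.15, SHFM1 -0.0063 and UBA6 -0.0427. Of the other values of members and named genes under the alternatives, 5112 stayed on their side of the threshold, 218 kept direction but were no longer called, and 68 became called. For same-numbered replicates the correlation of the deviations from the group means ran between -0.18 and 0.12. For treatment in wild type cells it was -0.18, -0.13 and -0.13, and 0.04 to 0.11 for replicates of other numbers. Deviations within a group of 3 cancel out, which ties these correlations together. They therefore cannot settle whether the replicates pair by number. The replicate block also ended the calls of PSMC3 in untreated cells and of PSMD3 in the difference of responses. With 3 libraries per group, the precision of small changes is limited.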
